A study of Mus musculus with 15 samples.

Results

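Mature thymocytes carrying floxed Thpok and Runx3 alleles and Cd4-Cre, sorted as CD4+CD8+ cells, were compared with wild-type CD4 single-positive (SP) thymocytes by RNA sequencing. The comparison used 6 of the 15 libraries of the series, 3 for each group, chosen by their sample labels alone, and it covered the 16550 genes with enough reads of the 53762 in the count table. The mutant cells came from CD45.2+ C57BL/6 marrow of the genotype Thpok fl/fl, Runx3 fl/dYFP, Cd4-Cre+ and Thpok-RKF-, and are called mutant CD4+CD8+ cells here. The WT CD4 SP cells were the CD45.1+CD45.2+ wild-type competitors. In both groups the marrow had been mixed and transplanted into irradiated CD45.1+ B2m-/- hosts, whose own tissues lack surface MHC class I. All cells passed the same maturity gate (CD44lo TCRb-hi CD24lo CD69lo) and differed in the coreceptors they were sorted by. The labels do not say what the RKF form of Thpok is, nor whether replicates came from separate hosts, so p-values measure only how much these samples vary, which could be technical. Cd4-Cre deletes floxed genes in developing T cells, and a host keeps radioresistant cells of its own. Groups referred to for context were Thpok-RKF- CD8 SP cells of the same genotype and host, and WT CD8 SP cells from I-Ab-/- hosts, 3 libraries each.

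The choice between the helper and the cytotoxic fate of a thymocyte is set by a pair of opposing transcription factors. Thpok, encoded by Zbtb7b, is a zinc-finger repressor that MHC class II-restricted thymocytes need to become CD4 T cells. Runx3 silences Cd4 and activates Cd8 and cytotoxic genes in MHC class I-restricted thymocytes, and each factor restrains the gene of the other. In B2m-/- hosts the thymic epithelium presents MHC class II but not classical class I, so that CD4 SP cells are the usual product.

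Levels are given as CPM, counts per 1000000 reads assigned to genes after scaling by TMM (trimmed mean of M-values), and are not divided by gene length. Fold changes are log2 of mutant CD4+CD8+ over WT CD4 SP with their standard error (SE). A gene was called when its edgeR quasi-likelihood p, adjusted by Benjamini-Hochberg over all 16550 genes, was below 0.05. The 6 libraries held 43858116 to 48568643 reads on genes. The first mutant library had reads on 21721 genes, against 18694 and 18918 in the other two, and the WT CD4 SP libraries had them on 18358 to 19892.

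Markers of mature thymocytes were present in both groups. The T cell receptor (TCR) genes Cd3e and Trbc2 were at 728, 803 and 798 CPM and 1242, 1475 and 1482 CPM in mutant CD4+CD8+ cells, against 572, 656 and 595 CPM and 1239, 1377 and 1621 CPM in WT CD4 SP cells. Klf2, a factor of mature thymocytes about to leave the thymus, was at 414, 456 and 468 CPM in mutant and 458, 506 and 395 CPM in WT CD4 SP cells. Rag1, which marks immature double-positive thymocytes, was at 7.38, 3.08 and 2.04 CPM in mutant and 3.06, 0.393 and 0.32 CPM in WT CD4 SP cells, and Rag2 and Ptcra did not exceed 1.71 CPM in any of the 6 libraries.

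Summed markers of other cell types overlapped between the groups for 3 of 5 lists and were apart for the other two. Ms4a1, Cd22, Csf1r, Cd14, Krt5, Foxn1 and Pdgfra had no read in any of the 6 libraries. Other markers with too few reads to be tested had some in either group. Blnk had 16, 4 and 26 reads in mutant and 0, 1 and 0 in WT CD4 SP libraries. Psmb11 had 75 reads in mutant replicate 2, and Ebf1 15 in mutant replicate 1. Hba-a2 had 22 and 37 reads in WT CD4 SP replicates 1 and 3, and Mpeg1 16 in WT CD4 SP replicate 3. Sums cover the tested members alone, which were 4 of 10 B cell, 8 of 14 myeloid and 4 of 10 erythroid and platelet markers. For stromal and epithelial markers they were 6 of 12, and for gamma-delta and NKT cell markers 11 of 15. B cell markers made up 446 to 698 CPM in mutant and 543 to 809 CPM in WT CD4 SP cells. Myeloid markers made up 57.4 to 79.2 CPM in mutant and 66.5 to 111 CPM in WT CD4 SP cells. Erythroid and platelet markers summed to 0.489 to 0.886 CPM in mutant and 1.12 to 8.85 CPM in WT CD4 SP cells, stromal and epithelial markers to 249 to 305 CPM in mutant and 274 to 324 CPM in WT CD4 SP cells, and gamma-delta and NKT cell markers to 332 to 347 CPM in mutant and 235 to 302 CPM in WT CD4 SP cells. The gamma-delta and NKT cell sum was higher and the erythroid and platelet sum lower in every mutant library than in every WT CD4 SP library. Of the 33 tested members of these 5 lists, 4 rose and 3 fell, where 9.15% of all tested genes were called higher and 8.42% lower. The rises were Cd79b, Col1a1, Slamf1 (lost without mutant replicate 2 or 3 or WT CD4 SP replicate 1 or 2) and Slamf6 (lost without mutant replicate 1, 2 or 3 or WT CD4 SP replicate 1 or 2), and the falls were Hba-a1 (lost without mutant replicate 1, 2 or 3 or WT CD4 SP replicate 3), Tbx21 and Cd244a. Cd79b, a chain of the B cell receptor complex, was at 4.31, 7.6 and 5.88 CPM in mutant and 1.6, 1.68 and 0.434 CPM in WT CD4 SP cells, and Col1a1 had 237 reads in mutant and 0 in WT CD4 SP cells. Hba-a1, a haemoglobin chain, had 1 read in mutant and 339 in WT CD4 SP cells. The macrophage genes Lyz2 and C1qb were high in WT CD4 SP replicate 1 alone, at 28.3 and 6.30 CPM there. Neither was called by edgeR, but without the low-count filter both were called lower in mutant cells (adjusted p = 0.0302 for Lyz2 and 0.00377 for C1qb), and DESeq2 called C1qb lower (adjusted p = 0.00012). Reads on no annotated gene made up 9.83, 8.33 and 8.63% of all counts in the mutant libraries, against 7.74, 5.89 and 5.09% in the WT CD4 SP libraries, without overlap. The part of other cells and of this share in the results below was not tested.

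Between mutant CD4+CD8+ and WT CD4 SP cells 2908 genes were called, 17.6% of those tested. In mutant cells 1514 were higher (9.15%) and 1394 lower (8.42%). The rises were the larger changes, with a median of 1.02 on the log2 scale and 782 genes of at least 2-fold, against 0.73 and 371 genes among the falls. Changes of at least 4-fold numbered 314 upward and 112 downward, of which 60 and 17 had a mean log2 CPM of at least 3. The 3 mutant and 3 WT CD4 SP values did not overlap in 1493 of the genes called higher and 1379 of those called lower. They did not overlap in 6358 of all tested genes, or 38.4%. The number of calls depended on single libraries, since it was 1823, 1683 and 1676 without mutant replicate 1, 2 or 3, and 1488 without WT CD4 SP replicate 3. It was 216 when a change of more than 2-fold was required by the test.

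**Figure D1:**
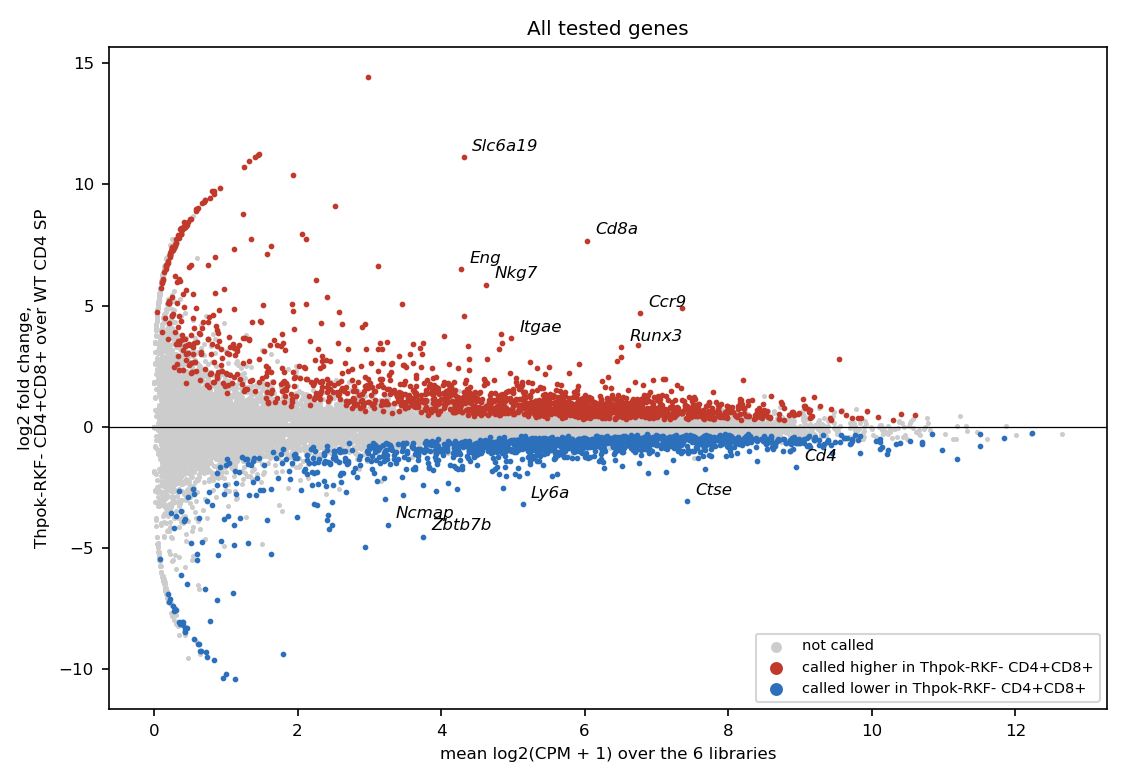
Log2 fold change (mutant CD4+CD8+ over WT CD4 SP, vertical axis) of each tested gene against its mean log2(CPM + 1) over the 6 libraries (horizontal axis). Red points are the 1514 genes called higher and blue points the 1394 called lower in mutant cells, and the red cloud reaches farther from 0 than the blue one.

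The genes of both lineage factors separated the groups. Zbtb7b was at 2.77, 2.95 and 1.67 CPM in mutant CD4+CD8+ cells, against 63.9, 79.1 and 27.4 CPM in WT CD4 SP cells (log2 fold change -4.53 ± 0.36, adjusted p = 1.21e-06). All mutant libraries lay below all WT CD4 SP libraries, and still above the 0.239, 0.376 and 0.0932 CPM of WT CD8 SP cells. Runx3 was at 295, 267 and 274 CPM in mutant cells, against 30.8, 32.4 and 23.1 CPM in WT CD4 SP cells, 9.69-fold higher (log2 fold change 3.28 ± 0.16, adjusted p = 6.2e-09). Runx3 was at 220.1, 202 and 194 CPM in WT CD8 SP cells, below each mutant library, but the difference was not called (log2 fold change 0.44 ± 0.14 (adjusted p = 0.0623)). These counts cover whole genes, so they do not show whether the floxed parts were deleted or whether the remaining transcripts encode a working protein.

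The coreceptor genes carry the sort itself and are not independent of it. Cd8a was at 748, 961 and 943 CPM in mutant cells, against 7.67, 3.19 and 2.13 CPM in WT CD4 SP cells (log2 fold change 7.68, or 8.36 without WT CD4 SP replicate 1). Cd8b1, the other chain of CD8, was at 682, 976 and 990.4 CPM in mutant cells, against 33, 30.7 and 26.2 CPM in WT CD4 SP cells. Cd4 was at 397, 214 and 234 CPM in mutant cells, against 874, 969 and 822 CPM in WT CD4 SP cells (log2 fold change -1.66 ± 0.41, adjusted p = 0.0146). The Cd4 groups did not overlap, but the call was lost without mutant replicate 2 (adjusted p = 0.0619) or replicate 3 (adjusted p = 0.0592). Mutant CD4+CD8+ cells carried Cd8 RNA below the level of WT CD8 SP cells for Cd8b1 (log2 fold change -1.21 ± 0.19, adjusted p = 0.000664) and Cd4 RNA far above theirs (log2 fold change 7.25 ± 0.55, adjusted p = 1.04e-06). In bulk samples like these, fewer cells with a transcript and less of it per cell cannot be told apart.

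Gata3, a factor that acts upstream of Thpok in helper development, was at 77.2, 75.6 and 83 CPM in mutant cells and 69.4, 100.3 and 111 CPM in WT CD4 SP cells. The groups overlapped and Gata3 was not called (log2 fold change -0.25 ± 0.16, adjusted p = 0.296). It was called lower without the libraries numbered 1, at -0.41 with adjusted p = 0.028. Mutant cells held more of it than WT CD8 SP cells, which were at 38.3, 41.5 and 39.2 CPM (log2 fold change 0.99 ± 0.16, adjusted p = 0.000964).

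Among the 16 tested lineage factors 5 were called higher in mutant cells and 2 lower, with a median log2 fold change of 0.05 beside 0.01 over all tested genes. Of all tested genes 9.15% were called higher and 8.42% lower, shares to set beside each list count against WT CD4 SP cells. The rises were Runx3, Runx2 (3.35), Zbtb7a (0.75), Patz1 (0.86) and Ikzf1 (0.47), and the falls Zbtb7b and Tcf7 (-0.31). Zbtb7a encodes LRF, a relative of Thpok that shares helper functions with it, and was at 108, 102 and 107 CPM in mutant cells, against 68.5, 62.4 and 56.8 CPM in WT CD4 SP cells (log2 fold change 0.75 ± 0.10, adjusted p = 0.000318). Patz1, which encodes MAZR, a repressor of the Thpok gene in CD8 cells, was at 160.0, 148 and 114 CPM in mutant cells, against 99.9, 73.5 and 58.7 CPM in WT CD4 SP cells (log2 fold change 0.86 ± 0.21, adjusted p = 0.0126). The Patz1 call was lost without mutant replicate 1 (adjusted p = 0.0534) or WT CD4 SP replicate 3 (adjusted p = 0.0655). The call of Runx2 was lost without mutant replicate 2 or WT CD4 SP replicate 1 or 3, and its estimate was 5.34 without WT CD4 SP replicate 2. The calls of Ikzf1 and Tcf7 were each lost without any 1 of the 6 libraries. The count of rises was 2 without WT CD4 SP replicate 3 and 3 without mutant replicate 1 or 2 or WT CD4 SP replicate 1. The count of falls was 1 without mutant replicate 1, 2 or 3 or WT CD4 SP replicate 1, 2 or 3.

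**Figure D2:**
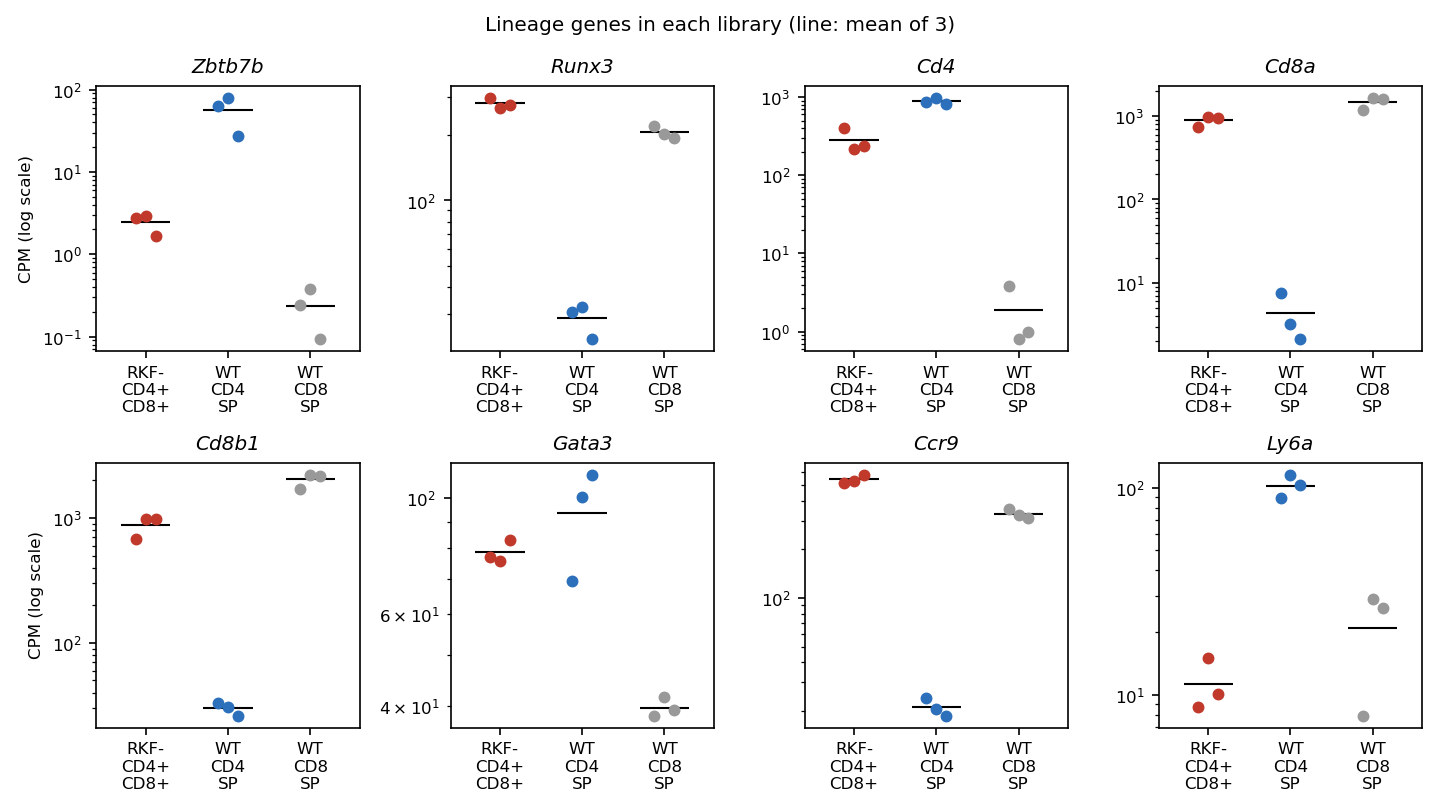
CPM (log scale) of the 8 lineage genes in each library. Columns are mutant CD4+CD8+ cells (RKF- CD4+CD8+), WT CD4 SP cells and WT CD8 SP cells. Points are libraries and lines the mean of 3. Zbtb7b, Cd4 and Ly6a lie lower and Runx3, Cd8a, Cd8b1 and Ccr9 higher in mutant than in WT CD4 SP cells, with no overlap, while Gata3 overlaps.

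Several genes of helper T cells fell in mutant cells. Of 16 tested helper genes 7 fell and 1 rose, where 8.42% of all tested genes were called lower and 9.15% higher. The rise was Khdrbs3 (log2 fold change 1.23, a call lost without any 1 of the 6 libraries), and the median log2 fold change was -0.65. Cd40lg, the ligand through which helper cells activate B cells, was at 32.2, 55.1 and 55.3 CPM in mutant cells, against 106, 125 and 125 CPM in WT CD4 SP cells (log2 fold change -1.32 ± 0.26, adjusted p = 0.00445). Tnfrsf4, the costimulatory receptor OX40, was at 96.5, 46.4 and 44.3 CPM in mutant cells, against 247, 188 and 268 CPM in WT CD4 SP cells (log2 fold change -1.91 ± 0.33, adjusted p = 0.00166). Both groups were apart in each gene, and mutant replicate 1 stood out in each of them, with the lowest Cd40lg and the highest Tnfrsf4 of the 3.

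Gpr183, an oxysterol receptor that guides T cells in lymphoid tissue, averaged 52.7 ± 7.89 CPM in mutant and 159 ± 29.4 CPM in WT CD4 SP cells (SD, n = 3 each, log2 fold change -1.60 ± 0.15 (adjusted p = 8.08e-06)). Cd200, a ligand of an inhibitory receptor on myeloid cells, was at 35.8, 33.8 and 31.4 CPM in mutant and 71.4, 68.9 and 96.5 CPM in WT CD4 SP cells (log2 fold change -1.23 ± 0.17 (adjusted p = 0.000261)). Icos, a CD28-family costimulator, averaged 102 ± 5.37 CPM in mutant and 172 ± 29.8 CPM in WT CD4 SP cells (log2 fold change -0.75 ± 0.13 (adjusted p = 0.00175)). Against WT CD8 SP cells the same list ran the other way, with 11 of 16 members higher in mutant cells and 1 lower, where 5.11% and 7.04% of all tested genes were called. Cd40lg and Tnfrsf4 were at 2.1, 3.24 and 4.68 CPM and 3.38, 2.71 and 2.24 CPM in WT CD8 SP cells, far below the mutant level (log2 fold change 3.82 ± 0.30, adjusted p = 1.3e-06 for Cd40lg, and log2 fold change 4.49 ± 0.38, adjusted p = 2.42e-06 for Tnfrsf4). That comparison also differs in host, I-Ab-/- for WT CD8 SP and B2m-/- for mutant cells, and the effects of host and genotype cannot be told apart.

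Cytotoxic genes were raised unevenly. Of 18 tested granule and effector genes 6 rose and 2 fell, the falls being Fasl (-3.72, or -4.56 without mutant replicate 1) and Ctsc (-0.43, lost without mutant replicate 1, 2 or 3 or WT CD4 SP replicate 1 or 3), and the median log2 fold change was 0.39. The count of rises was 3 without mutant replicate 2, and that of falls 1 without mutant replicate 1, 2 or 3 or WT CD4 SP replicate 1 or 3. Of all tested genes 9.15% were called higher and 8.42% lower. Nkg7, a membrane protein of cytotoxic granules, was at 140.4, 195 and 178 CPM in mutant cells, against 1.26, 2.09 and 5.46 CPM in WT CD4 SP cells (log2 fold change 5.87 ± 0.41, adjusted p = 3.39e-07). WT CD8 SP cells held more, 1065, 1327 and 1294 CPM (log2 fold change -2.84 ± 0.34, adjusted p = 7.99e-05). Prf1, the pore-forming protein perforin, was at 223, 257 and 251 CPM in mutant cells, against 36.2, 31.7 and 30.2 CPM in WT CD4 SP cells (log2 fold change 2.90 ± 0.16, adjusted p = 2.62e-08). Here the mutant level exceeded the 113, 134 and 140.4 CPM of WT CD8 SP cells as well (log2 fold change 0.92 ± 0.15, adjusted p = 0.000993). Crtam, an adhesion molecule of cytotoxic cells, averaged 41.9 ± 6.37 CPM in mutant and 7.89 ± 3.69 CPM in WT CD4 SP cells (log2 fold change 2.41 ± 0.32 (adjusted p = 0.00021)), and 37.3 ± 7.82 CPM in WT CD8 SP cells.

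Natural killer (NK) receptor genes changed in both directions, at low levels. Summed over the 12 tested members, they made up 96.6 to 116 CPM in mutant and 108 to 131 CPM in WT CD4 SP cells. Of 12 tested members 3 rose, Cd160, Klrd1 and Klrk1, and 2 fell, Hcst (-0.50) and Cd244a, with 8 reads in mutant and 86 in WT CD4 SP cells (lost without mutant replicate 2 or 3 or WT CD4 SP replicate 1 or 3), with a median log2 fold change of -1.24. The count of falls was 1 without mutant replicate 2 or 3 or WT CD4 SP replicate 1 or 3. Of all tested genes 9.15% were called higher and 8.42% lower. Cd160, a receptor of intraepithelial and NK cells, was at 14.7, 18.9 and 24.8 CPM in mutant cells, against 1.21, 2.61 and 2.47 CPM in WT CD4 SP cells (log2 fold change 3.21 ± 0.34, adjusted p = 3.04e-05). Klrd1, the CD94 chain of NKG2 receptors, was at 5.47, 7.82 and 7.11 CPM in mutant cells, against 0.0457, 0.476 and 1.74 CPM in WT CD4 SP cells (log2 fold change 3.18, or 4.63 without WT CD4 SP replicate 3). Klrk1, which encodes NKG2D, had 67 reads over the mutant libraries and 0 over the WT CD4 SP libraries, at least 22.6-fold higher when 0 is set to 3 reads over the group, and its call was lost without the libraries numbered 1 (adjusted p = 0.0571). In each of these 3 genes all mutant libraries lay above all WT CD4 SP libraries. Against WT CD8 SP cells 7 of the 12 were lower in mutant cells and none was higher by edgeR, DESeq2 or limma, nor at an unadjusted p below 0.05. In that comparison 5.11% of all tested genes were called higher and 7.04% lower.

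The integrin CD103 anchors T cells to epithelia, and its alpha chain gene, Itgae, is a known target in the TGF-beta and Runx3 programme. Itgae was at 113, 99 and 106 CPM in mutant cells, against 6.23, 10.3 and 8.76 CPM in WT CD4 SP cells (log2 fold change 3.65 ± 0.18, adjusted p = 6.2e-09). The groups were far apart, and both were below the 887, 867 and 849.7 CPM of WT CD8 SP cells (log2 fold change -3.03 ± 0.17, adjusted p = 4.87e-08). Smad3, a signal transducer of TGF-beta receptors, was at 113, 80.1 and 86.3 CPM in mutant cells, against 25.6, 40.9 and 18.7 CPM in WT CD4 SP cells (log2 fold change 1.71 ± 0.31, adjusted p = 0.00249). Of the 17 tested CD103 and TGF-beta pathway genes 3 rose (Itgae, Smad3 and Itgb7, the last at 0.30, lost without mutant replicate 1, 2 or 3 or WT CD4 SP replicate 1 or 3). None fell by edgeR or DESeq2, 1 by limma, and 1 at an unadjusted p below 0.05. The median log2 fold change was 0.33, and the count of rises was 6 without WT CD4 SP replicate 2. Of all tested genes 9.15% were called higher and 8.42% lower.

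Chemokine receptors and Ly6 surface proteins also held large contrasts. Ccr9, the receptor for the thymic and intestinal chemokine CCL25, was at 516, 529.9 and 580.4 CPM in mutant cells, against 24.1, 20.5 and 18.7 CPM in WT CD4 SP cells, 25.7-fold higher (log2 fold change 4.68 ± 0.22, adjusted p = 5.87e-09). The mutant libraries also exceeded the 358, 326 and 312 CPM of WT CD8 SP cells (log2 fold change 0.71 ± 0.19, adjusted p = 0.0247). Of 15 tested chemokine receptor genes Ccr9 was among the rises, and Cxcr6 (-1.74), Ccr8 (-1.21, lost without mutant replicate 2 or 3 or WT CD4 SP replicate 1 or 3) and Ccr10 (-3.79, lost without any 1 of the 6 libraries) fell. The count of falls was 1 without mutant replicate 2 or 3 or WT CD4 SP replicate 3, and 8.42% of all tested genes fell.

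Ly6a, the mature T cell and stem cell antigen Sca-1, was at 8.71, 15 and 10.1 CPM in mutant cells, against 89.1, 116 and 103 CPM in WT CD4 SP cells (log2 fold change -3.19 ± 0.39, adjusted p = 0.000108). All mutant libraries were below all WT CD4 SP libraries. For the Ly6 list that follows, the shares of all tested genes were 9.15% higher and 8.42% lower. Of 8 tested Ly6 family genes Ly6a, Ly6c1 (-1.39) and Ly6e (-0.45, lost without mutant replicate 1 or 2 or WT CD4 SP replicate 1 or 3) fell and Ly6c2 rose (2.63), with a median log2 fold change of -0.85. Ly6c2 averaged 17 ± 2.59 CPM in mutant and 2.73 ± 0.764 CPM in WT CD4 SP cells, and Ly6c1 8.94 ± 0.976 CPM in mutant and 23.4 ± 0.417 CPM in WT CD4 SP cells (SD, n = 3 each). Ly6c1 and Ly6c2 are near-identical copies, so how the counting split reads between them is uncertain.

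The largest rises among well-expressed genes, beside Cd8a, Cd8b1, Ccr9 and Nkg7, were Slc6a19, Adgrb2, Eng, Baiap3, Adgrg5 and Cxxc5. Slc6a19, a sodium-coupled transporter of neutral amino acids best known from intestine and kidney, was at 338, 355 and 362 CPM in mutant cells, against 0, 0.414 and 0.0229 CPM in WT CD4 SP cells. The WT CD4 SP group held 21 reads in all, against 48892 in the mutant group (log2 fold change 11.14 ± 0.50, adjusted p = 3.63e-09). With so few WT CD4 SP reads the estimate is imprecise, at 14.58 without WT CD4 SP replicate 2 and 8.32 by limma on log2(value + 1). Adgrb2, an adhesion G protein-coupled receptor, was at 49.6, 56.1 and 49.9 CPM in mutant cells, against 0, 0.228 and 1.35 CPM in WT CD4 SP cells (log2 fold change 6.63, or 8.71 without WT CD4 SP replicate 3). Eng, which encodes endoglin, a coreceptor for TGF-beta family ligands, was at 147, 153 and 135 CPM in mutant cells, against 1.16, 1.74 and 1.92 CPM in WT CD4 SP cells (log2 fold change 6.49 ± 0.22, adjusted p = 5.24e-10). Slc6a19 and Eng were also above WT CD8 SP cells, which held 78.4, 69 and 68.7 CPM and 54.1, 51.9 and 54 CPM.

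Baiap3, a relative of the Munc13 vesicle-priming proteins, was at 75.5, 47 and 39.8 CPM in mutant cells, against 0.0457, 1.74 and 3.02 CPM in WT CD4 SP cells (log2 fold change 5.07, or 5.85 without WT CD4 SP replicate 3). Adgrg5, another adhesion G protein-coupled receptor, averaged 88.7 ± 11.3 CPM in mutant and 3.68 ± 1.67 CPM in WT CD4 SP cells (log2 fold change 4.59 ± 0.27 (adjusted p = 4.35e-08)), below the 585 ± 45.8 CPM of WT CD8 SP cells. Cxxc5, a CXXC zinc-finger protein, averaged 105 ± 6.73 CPM in mutant and 7.3 ± 4.11 CPM in WT CD4 SP cells (log2 fold change 3.85 ± 0.30 (adjusted p = 1.16e-06)). In these 6 genes the mutant and WT CD4 SP libraries were far apart, and the WT CD4 SP levels were near 0 or a few CPM. For Nkg7, too, the estimate grew without WT CD4 SP replicate 3, to 6.64.

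Beside Zbtb7b and Ly6a, the largest falls were Ncmap, Ctse, Vill, Ppm1j, H1f0, Itih5, Klhl5 and Grn. Ncmap, named for a protein of noncompact myelin, was at 2.26, 1.82 and 1.62 CPM in mutant cells, against 24.4, 30 and 38.7 CPM in WT CD4 SP cells (log2 fold change -4.03 ± 0.28, adjusted p = 3.12e-07). Ctse, the endosomal aspartic protease cathepsin E, was at 67, 64.5 and 46.7 CPM in mutant cells, against 490.1, 446 and 555 CPM in WT CD4 SP cells (log2 fold change -3.07 ± 0.17, adjusted p = 3.08e-08). Both genes were low in every mutant library, but Ctse was at 275, 285 and 311 CPM in WT CD8 SP cells and so fell below both wild-type lineages. Grn, the growth factor progranulin, averaged 7.29 ± 2.48 CPM in mutant and 35.8 ± 7.34 CPM in WT CD4 SP cells (log2 fold change -2.30 ± 0.27 (adjusted p = 8.06e-05)). H1f0, a replication-independent linker histone, averaged 5.7 ± 2.14 CPM in mutant and 35.2 ± 5.88 CPM in WT CD4 SP cells (log2 fold change -2.63 ± 0.33 (adjusted p = 0.000146)). Vill, a villin-like protein (-2.96), Ppm1j, a PP2C-family phosphatase (-2.79), Itih5, an inter-alpha-trypsin inhibitor heavy chain (-2.56), and Klhl5, a kelch-like protein (-2.41), averaged 2.90 to 7.26 CPM in mutant and 22.6 to 42.8 CPM in WT CD4 SP cells. The call of Itih5 was lost without mutant replicate 3 (-2.32, adjusted p = 0.059).

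**Figure D3:**
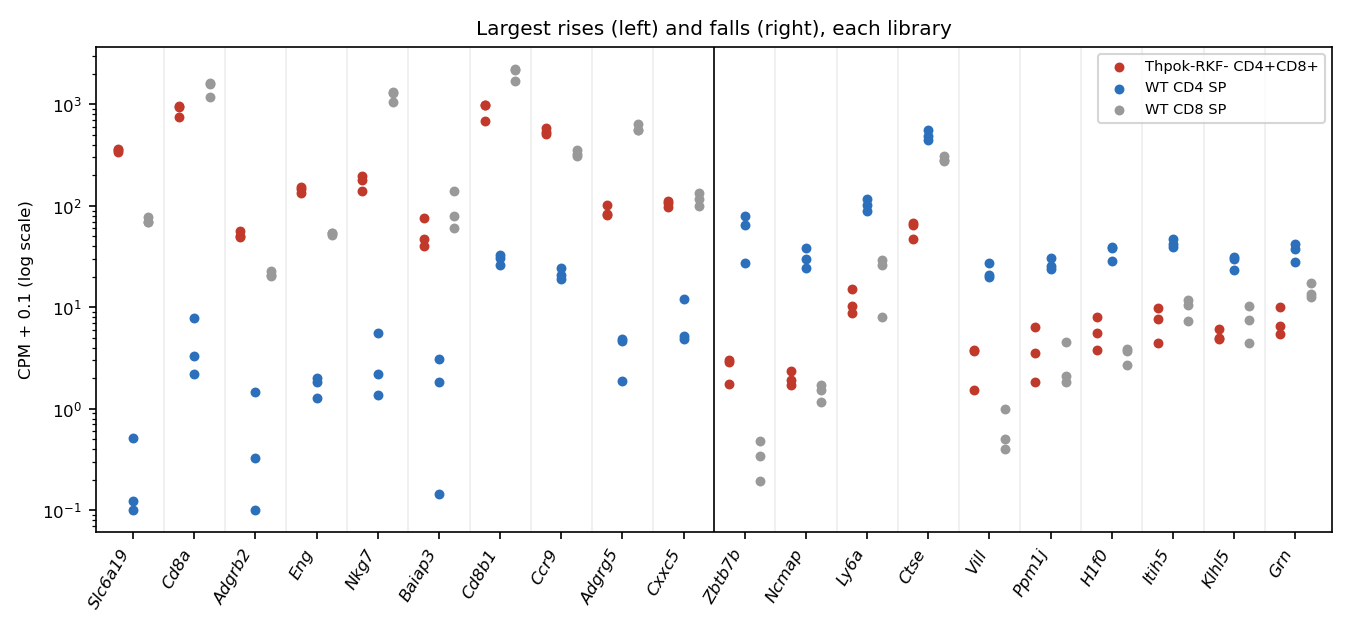
CPM + 0.1 (log scale) in each library of mutant CD4+CD8+ (left in each column), WT CD4 SP (middle) and WT CD8 SP cells (right), for the 10 largest rises and the 10 largest falls with a mean log2 CPM of at least 3. The 3 mutant points lie above the 3 WT CD4 SP points for every rise and below them for every fall, while WT CD8 SP cells lie on either side of the mutant level.

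The promoters of 4 of these genes are shown because the opposing factors bind DNA and 1 of the genes encodes Thpok itself. They are RefSeq sequences of build GRCm38.p6, from 250 bases before to 50 after an annotated start. They lie at chr13:73692587-73692886 for Slc6a19 and chr3:89387622-89387921 for Zbtb7b, both on the minus strand, and at chr6:71373177-71373476 for Cd8a and chr7:43436888-43437187 for Nkg7, both on the plus strand. Capitals mark TGTGGT, the core that Runx proteins bind, or its complement ACCACA on the other strand.
Slc6a19: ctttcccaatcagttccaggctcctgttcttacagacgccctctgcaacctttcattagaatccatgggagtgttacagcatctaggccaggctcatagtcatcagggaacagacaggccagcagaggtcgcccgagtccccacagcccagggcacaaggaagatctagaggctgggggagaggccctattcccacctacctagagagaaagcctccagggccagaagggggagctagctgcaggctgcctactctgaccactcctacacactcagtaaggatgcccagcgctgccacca
Cd8a: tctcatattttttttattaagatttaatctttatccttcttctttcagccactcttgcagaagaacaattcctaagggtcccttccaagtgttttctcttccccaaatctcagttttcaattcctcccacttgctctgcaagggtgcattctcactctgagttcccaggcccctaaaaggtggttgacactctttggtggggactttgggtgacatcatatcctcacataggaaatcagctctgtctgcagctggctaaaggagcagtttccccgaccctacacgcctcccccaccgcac
Nkg7: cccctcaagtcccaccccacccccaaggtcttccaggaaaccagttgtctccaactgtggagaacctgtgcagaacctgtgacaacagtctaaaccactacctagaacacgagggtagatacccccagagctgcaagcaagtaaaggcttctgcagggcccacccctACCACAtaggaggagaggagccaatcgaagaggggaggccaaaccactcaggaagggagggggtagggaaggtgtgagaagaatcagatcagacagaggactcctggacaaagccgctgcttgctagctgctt
Zbtb7b: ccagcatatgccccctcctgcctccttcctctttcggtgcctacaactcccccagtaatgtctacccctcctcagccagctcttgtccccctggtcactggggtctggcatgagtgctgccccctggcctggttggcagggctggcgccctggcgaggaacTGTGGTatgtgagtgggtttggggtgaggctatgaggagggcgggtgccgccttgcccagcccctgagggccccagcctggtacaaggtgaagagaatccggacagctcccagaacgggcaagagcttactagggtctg

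The core is in the Nkg7 window and in the Zbtb7b window shown, and not in the Slc6a19 or Cd8a window or in the window of the other Zbtb7b start. Nkg7 was chosen for display after the search. The core was in 187 of 1462 promoters of genes called higher (12.8%), in 193 of 1343 of genes called lower (14.4%), in 1789 of 13434 of all tested genes (13.3%) and in 5506 of 32851 in the whole table (16.8%). These shares are a description. Promoters were found by symbol for 1127 of the 1514 genes called higher, 1075 of the 1394 called lower and 10573 of the 16550 tested.

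Some genes in mutant cells lay outside the range of both wild-type lineages. Pim1, a survival kinase induced by cytokines, was at 29.5, 28.6 and 31.5 CPM in mutant cells, against 2.1, 3.81 and 5.33 CPM in WT CD4 SP cells and 3.35, 2.41 and 2.59 CPM in WT CD8 SP cells. Its log2 fold changes were 2.99 ± 0.27 (adjusted p = 4.2e-06) over WT CD4 SP and 3.42 ± 0.27 (adjusted p = 1.46e-06) over WT CD8 SP. Eno2, neuron-type enolase of glycolysis, was at 36.7, 19.6 and 18.1 CPM in mutant cells, against 2.74, 2.15 and 1.81 CPM in WT CD4 SP cells and 0.851, 0.853 and 0.606 CPM in WT CD8 SP cells. Pcsk1, a proprotein convertase, was at 48.6, 62.7 and 48.6 CPM in mutant cells, against 4.59, 7.63 and 10.5 CPM in WT CD4 SP cells (2.82 ± 0.41 (adjusted p = 0.000459) on the log2 scale). Cap2, an actin-binding protein, was at 21.3, 21.9 and 21.2 CPM in mutant cells, against 5.82, 2.88 and 1.99 CPM in WT CD4 SP cells (2.59 ± 0.37 (adjusted p = 0.000391) on the log2 scale). The pseudogene Hdac1-ps was also above both (3.45 and 3.64), but it shares reads with Hdac1, so its value is uncertain.

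Below both lineages, beside Ctse, were Tdg, Hmgn2, Prr13 and Pcsk4. Tdg, thymine DNA glycosylase, which removes mismatched and oxidised bases in DNA demethylation, was at 18.5, 17.4 and 19 CPM in mutant cells, against 70.3, 61.3 and 76 CPM in WT CD4 SP cells and 54.7, 66.8 and 79.9 CPM in WT CD8 SP cells. The fall was -1.92 ± 0.19 (adjusted p = 1.02e-05) against WT CD4 SP and -1.88 ± 0.19 (adjusted p = 1.3e-05) against WT CD8 SP. Hmgn2, a nucleosome-binding protein, was at 66.7, 81.1 and 72.7 CPM in mutant cells, against 225, 247 and 330.2 CPM in WT CD4 SP cells (-1.86 ± 0.20 (adjusted p = 3.52e-05)). Prr13 (-1.95) and the proprotein convertase Pcsk4 (-2.24) also fell against both. Tdg and Hmgn2 have processed pseudogenes, and reads shared with them make the values uncertain.

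Il2rb and Il2rg, chains of the interleukin-2 receptor changed in opposite directions. Il2rb, the beta chain shared by the interleukin-2 and interleukin-15 receptors, was at 446, 328 and 334 CPM in mutant cells, against 124, 179.5 and 105 CPM in WT CD4 SP cells (log2 fold change 1.44 ± 0.18, adjusted p = 0.000133). Il2rg, the common gamma chain, was at 463, 491 and 498 CPM in mutant cells, against 871, 908 and 1265 CPM in WT CD4 SP cells (log2 fold change -1.07 ± 0.22, adjusted p = 0.00602). The groups did not overlap in either gene. Of 24 tested cytokine receptor and SOCS genes 3 rose (Il2rb, Il18r1 and Ifnar2, the last lost without any 1 of the 6 libraries) and 2 fell (Il2rg and Il2ra, Il2ra being lost without mutant replicate 1, 2 or 3 or WT CD4 SP replicate 2 or 3), near the 9.15% and 8.42% of all tested genes. Il18r1, a receptor chain for interleukin-18, was at 37.1, 18.3 and 19.4 CPM in mutant cells, against 5.91, 9.77 and 11.2 CPM in WT CD4 SP cells (log2 fold change 1.48, or 0.85 without the libraries numbered 1). The count of falls was 1 without mutant replicate 1, 2 or 3 or WT CD4 SP replicate 2.

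Regulatory T cell genes were present in both groups. Foxp3, the defining factor of that lineage, was at 50, 24 and 22.4 CPM in mutant cells and 31.5, 53.7 and 39.3 CPM in WT CD4 SP cells. The groups overlapped, with mutant replicate 1 the second highest of the 6, and Foxp3 was not called (log2 fold change -0.37 ± 0.32, adjusted p = 0.459), although it was lower in mutant cells without the libraries numbered 1 (-1.01, adjusted p = 0.0448). In WT CD8 SP cells it was at 1.67, 2.68 and 1.42 CPM. Of 16 tested regulatory T cell genes 3 fell and none rose by edgeR, where DESeq2, limma and an unadjusted p below 0.05 each gave 1 rise. The falls were Swap70, a signalling adaptor (-1.18), Tnfrsf18, the costimulator GITR (-0.95), and Il2ra, the alpha chain CD25 (-1.20, lost without mutant replicate 1, 2 or 3 or WT CD4 SP replicate 2 or 3). Without the libraries numbered 1 the falls numbered 8. Of all tested genes 9.15% were called higher and 8.42% lower in the main fit. Of 8 tested T helper effector genes 3 fell, all with few reads. Il21 had 0 reads in mutant and 299 in WT CD4 SP cells, at least 98.4-fold lower. Il4 had 5 reads in mutant and 195 in WT CD4 SP cells (lost without mutant replicate 1, 2 or 3 or WT CD4 SP replicate 2 or 3), and Tbx21 had 31 in mutant and 380 in WT CD4 SP cells (lost without mutant replicate 2 or 3 or WT CD4 SP replicate 2 or 3). DESeq2 did not call Il21 (adjusted p = 0.145), and the count of falls was 1 without mutant replicate 2 or 3 or WT CD4 SP replicate 2 or 3.

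Coinhibitory and CD28-family genes had the largest share of members called among the lists with at least 8 tested. Of 17 tested members 4 rose and 8 fell, where 9.15% of all tested genes were called higher and 8.42% lower. The median log2 fold change of the list was -0.45. The rises were Cd226, Cd160, Lag3 (2.31, lost without any 1 of the 6 libraries) and Vsir (0.59, lost without mutant replicate 2 or 3 or WT CD4 SP replicate 3). Cd226, an activating receptor of cytotoxic cells, was at 121, 146 and 139.6 CPM in mutant cells, against 42.9, 44.4 and 43.7 CPM in WT CD4 SP cells (log2 fold change 1.64 ± 0.11, adjusted p = 2.88e-07). The falls held Cd200, Icos, Lair1, an inhibitory collagen receptor, and Pdcd1, the inhibitory receptor PD-1 (-1.28, lost without mutant replicate 2). Lair1 averaged 1.76 ± 0.723 CPM in mutant and 9.55 ± 3.07 CPM in WT CD4 SP cells (log2 fold change -2.43 ± 0.32 (adjusted p = 0.000202)), and it was below WT CD8 SP cells too (-2.76). Lag3 had only 258 reads in mutant and 49 in WT CD4 SP cells. Falls numbered 5 without mutant replicate 2 or 3 or WT CD4 SP replicate 3, and rises 2 without mutant replicate 2 or 3 or WT CD4 SP replicate 3.

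TCR signalling components changed in both directions. Of 30 tested TCR complex and proximal signalling genes 6 rose and 6 fell, and the median log2 fold change was -0.09. Cd226 (1.64) was among the rises, and Lat and Cd5 were among the falls. Of 20 tested TCR signal response genes 2 rose, among them Bcl2l11, and 3 fell, among them Cd5 and Nr4a1. The median log2 fold change of that list was -0.12. Of all tested genes 9.15% were called higher and 8.42% lower. Lat, the scaffold of the signalling complex, averaged 888 ± 57.3 CPM in mutant and 1373 ± 46.3 CPM in WT CD4 SP cells (log2 fold change -0.63 ± 0.13 (adjusted p = 0.00632)). Cd5, whose level follows the strength of TCR signals, averaged 423 ± 25 CPM in mutant and 656 ± 81.7 CPM in WT CD4 SP cells (log2 fold change -0.63 ± 0.13 (adjusted p = 0.0043)). Nr4a1, an immediate target of TCR signals, was at 184, 107 and 107 CPM in mutant cells, against 275, 326 and 325 CPM in WT CD4 SP cells (log2 fold change -1.22 ± 0.29, adjusted p = 0.0122). The mutant libraries were the lower ones in Cd5 and Nr4a1, replicate 1 being the highest of the 3. For the 30 TCR complex and proximal signalling genes, rises numbered 2 without mutant replicate 3 or WT CD4 SP replicate 3. Their rises numbered 3 without mutant replicate 2, and their falls 3 without WT CD4 SP replicate 3.

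Among maturation genes more members fell than rose. Of 22 tested maturation and egress genes 9 fell and 1 rose, Gimap5 (0.55), with a median log2 fold change of -0.30. Without WT CD4 SP replicate 3 the falls numbered 6, and without the libraries numbered 1 they numbered 11 and the rises 3. Ms4a6b, a membrane protein of mature T cells, averaged 633 ± 9.13 CPM in mutant and 1319.8 ± 257 CPM in WT CD4 SP cells (log2 fold change -1.06 ± 0.14 (adjusted p = 0.000254)). Gimap4, a GTPase of lymphocyte survival, averaged 855 ± 24.7 CPM in mutant and 1506 ± 144 CPM in WT CD4 SP cells (log2 fold change -0.82 ± 0.12 (adjusted p = 0.000459)). Cd52, a small surface glycoprotein, averaged 816 ± 106 CPM in mutant and 1764 ± 401 CPM in WT CD4 SP cells (log2 fold change -1.11 ± 0.17 (adjusted p = 0.000838)), and Slfn1, a Schlafen protein linked to T cell quiescence, 368 ± 10.1 CPM in mutant and 605 ± 70.8 CPM in WT CD4 SP cells (log2 fold change -0.72 ± 0.12 (adjusted p = 0.00107)). Of 14 tested immature double-positive genes 1 rose and 1 fell, near the 9.15% and 8.42% of all tested genes. Dntt, the terminal transferase that adds nucleotides during receptor rearrangement, was at 31.2, 44 and 54.1 CPM in mutant cells, against 20.1, 20.3 and 13 CPM in WT CD4 SP cells (log2 fold change 1.27 ± 0.28, adjusted p = 0.00801). Cd1d1, which presents lipids to NKT cells, was at 122, 101 and 85.6 CPM in mutant cells, against 211, 164 and 206 CPM in WT CD4 SP cells (log2 fold change -0.91 ± 0.21, adjusted p = 0.00943).

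Interferon-stimulated genes had the most members called in 1 direction of the 30 lists. Of 40 tested members 20 fell in mutant cells and none rose by edgeR, where DESeq2 and limma each called 1 rise and 4 had an unadjusted p below 0.05. The median log2 fold change was -0.58, and 8.42% of all tested genes were called lower and 9.15% higher. Oasl2, a 2'-5' oligoadenylate synthetase-like protein of the antiviral response, was at 18.4, 8.6 and 17 CPM in mutant cells, against 46.5, 66.7 and 65 CPM in WT CD4 SP cells (log2 fold change -2.02 ± 0.30, adjusted p = 0.000648). Irf7, a transcription factor that amplifies type I interferon responses, was at 337, 268 and 254 CPM in mutant cells, against 528, 505 and 592 CPM in WT CD4 SP cells (log2 fold change -0.92 ± 0.15, adjusted p = 0.00125). Iigp1, an interferon-inducible GTPase, was at 45.7, 38 and 40.6 CPM in mutant cells, against 88.5, 94.1 and 109 CPM in WT CD4 SP cells (log2 fold change -1.23 ± 0.21, adjusted p = 0.00174), and Ifi27l2a averaged 166 ± 10.3 CPM in mutant and 376 ± 53.5 CPM in WT CD4 SP cells (log2 fold change -1.18 ± 0.21 (adjusted p = 0.00183)). All mutant libraries were below all WT CD4 SP libraries in these 4 genes. Falls numbered 13 without mutant replicate 1 or WT CD4 SP replicate 3. Against WT CD8 SP cells 6 members were higher and 3 lower in mutant cells, where 5.11% and 7.04% of all tested genes were called. Mutant and WT CD4 SP cells shared their hosts' genotype but came from different marrow donors.

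Of 28 tested MHC class I and antigen-processing genes 5 rose and 7 fell, with a median log2 fold change of -0.15. Of all tested genes 9.15% were called higher and 8.42% lower. H2-Oa and H2-Ob, the chains of H2-O, which modulates class II peptide loading, both rose, H2-Oa to 23.4, 21.9 and 23.6 CPM in mutant cells, against 6.81, 5.67 and 4.62 CPM in WT CD4 SP cells (log2 fold change 2.01 ± 0.18, adjusted p = 5.91e-06), and H2-Ob by 1.22 ± 0.19 (adjusted p = 0.000895) on the log2 scale. The class Ib gene H2-Q7 (0.89 ± 0.11 (adjusted p = 9.34e-05)), its close copy H2-Q6 (0.74, lost without mutant replicate 1 or WT CD4 SP replicate 1, 2 or 3) and the peptide-trimming enzyme Erap1 (0.39, lost without mutant replicate 2 or 3 or WT CD4 SP replicate 1 or 3) were the other rises. Reads of H2-Q copies cannot be assigned with certainty. Falls numbered 2 without mutant replicate 1, 2 or 3 or WT CD4 SP replicate 3, and rises 3 without WT CD4 SP replicate 1 or 3.

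Cell cycle genes rose in part in mutant cells. Of 30 tested members 8 rose, and none fell by edgeR, DESeq2 or limma or at an unadjusted p below 0.05. The median log2 fold change was 0.51, and 9.15% of all tested genes were called higher and 8.42% lower. Mki67, a nuclear protein of cycling cells, was at 60.3, 63.3 and 57.6 CPM in mutant cells, against 11, 21.6 and 33.4 CPM in WT CD4 SP cells (log2 fold change 1.46 ± 0.32, adjusted p = 0.00802). Top2a, the topoisomerase of dividing cells, was at 105, 107 and 96.9 CPM in mutant cells, against 25.9, 53.2 and 54.2 CPM in WT CD4 SP cells (log2 fold change 1.21 ± 0.26, adjusted p = 0.00615). The mutant libraries were close to each other, and WT CD4 SP replicate 1 was the lowest of the 6 in both genes. Cdt1, a licensing factor of DNA replication, averaged 69.8 ± 6.32 CPM in mutant and 47.9 ± 5.72 CPM in WT CD4 SP cells (log2 fold change 0.54 ± 0.11 (adjusted p = 0.00625)). The count of rises was 3 without mutant replicate 1 or WT CD4 SP replicate 1 and 4 without mutant replicate 2 or WT CD4 SP replicate 3. In WT CD8 SP cells the level was higher still, with 25 of the 30 lower in mutant CD4+CD8+ cells and none higher by edgeR, DESeq2 or limma or at an unadjusted p below 0.05. In that comparison 5.11% of all tested genes were called higher and 7.04% lower.

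**Figure D4:**
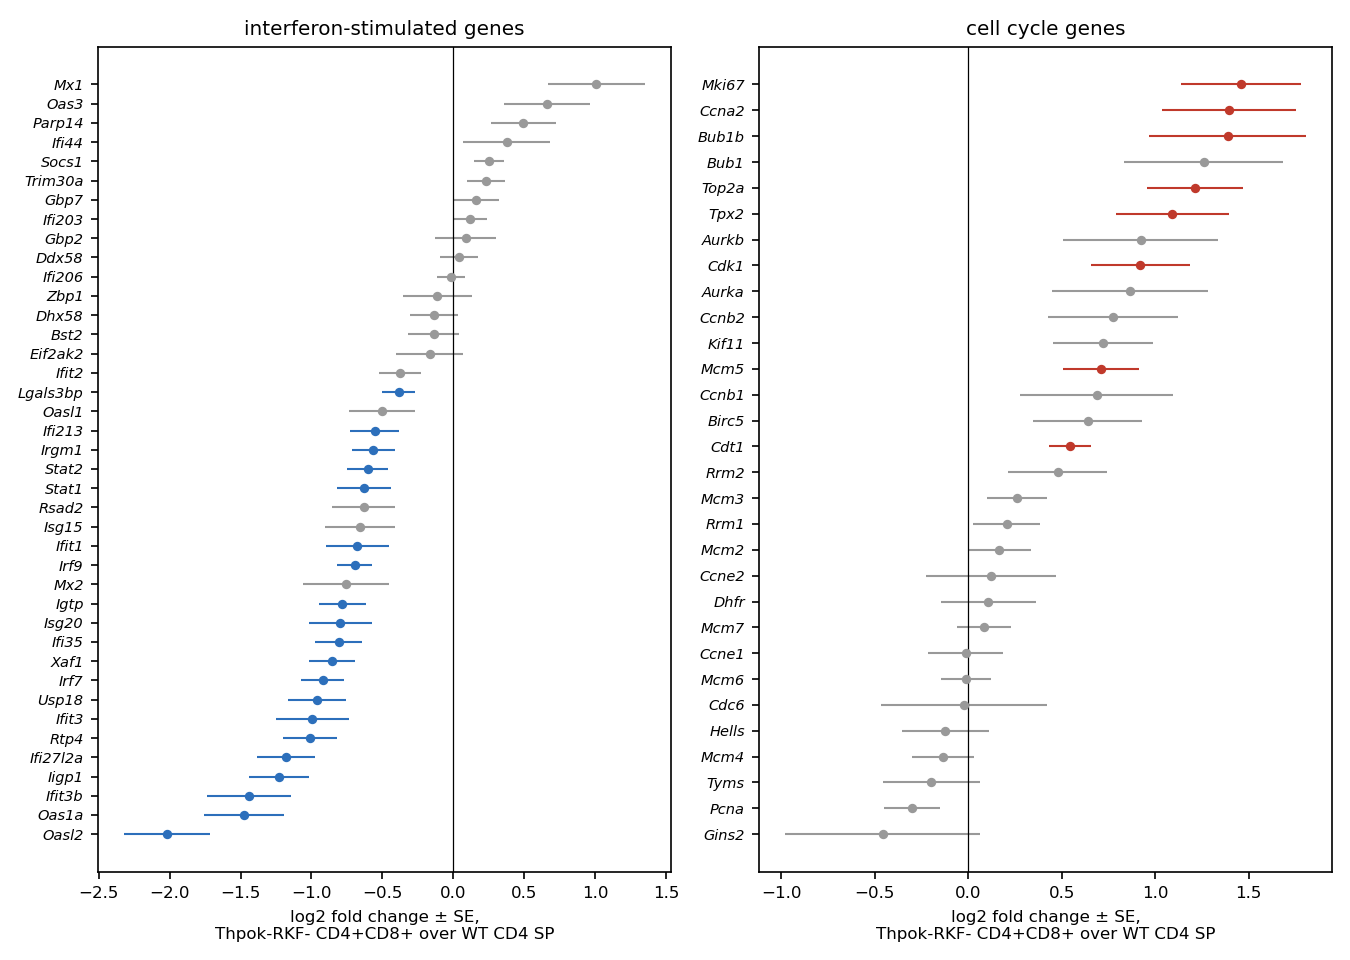
Log2 fold change ± SE (mutant CD4+CD8+ over WT CD4 SP, horizontal axis) of each tested interferon-stimulated gene (left) and cell cycle gene (right). Blue marks the 20 interferon-stimulated genes called lower, red the 8 cell cycle genes called higher, and grey the members that were not called.

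Effector transcription factors and effector-memory genes did not move together. Of 20 tested effector and innate-like factors Rora, Id2, Bach2 and Ikzf3 (0.72, lost without mutant replicate 1 or 2 or WT CD4 SP replicate 3) rose and Id3, Tbx21 and Irf8 (-1.16, lost without mutant replicate 1 or 3 or WT CD4 SP replicate 2) fell. Of all tested genes 9.15% were called higher and 8.42% lower. Id2 and Id3, inhibitors of E proteins, went in opposite directions. Id2 was at 141, 166 and 149.8 CPM in mutant cells, against 77.8, 70.3 and 95.6 CPM in WT CD4 SP cells (log2 fold change 0.91 ± 0.16, adjusted p = 0.00231). Id3 was at 75.6, 135 and 135 CPM in mutant cells, against 279.6, 425 and 430.0 CPM in WT CD4 SP cells (log2 fold change -1.72 ± 0.42, adjusted p = 0.0125), a call lost without mutant replicate 1 (adjusted p = 0.0553). Rora, a nuclear receptor of innate-like lymphocytes, averaged 29.7 ± 1.47 CPM in mutant and 8.7 ± 2.02 CPM in WT CD4 SP cells (log2 fold change 1.77 ± 0.24 (adjusted p = 0.000268)). Bach2, a repressor that restrains effector differentiation, averaged 169 ± 11.7 CPM in mutant and 99.9 ± 11.1 CPM in WT CD4 SP cells (log2 fold change 0.75 ± 0.15 (adjusted p = 0.00483)). Falls numbered 1 without mutant replicate 1 or 3 or WT CD4 SP replicate 2.

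Of 19 tested effector-memory genes 7 fell and 3 rose, where 8.42% of all tested genes were called lower and 9.15% higher. The median log2 fold change of the list was -0.10. Lgals3, which encodes galectin-3, averaged 1.42 ± 0.221 CPM in mutant and 12.3 ± 3.75 CPM in WT CD4 SP cells (log2 fold change -3.11 ± 0.41 (adjusted p = 0.000215)), and Crip1, a small LIM protein, 111 ± 10.3 CPM in mutant and 221 ± 34.7 CPM in WT CD4 SP cells (log2 fold change -0.99 ± 0.15 (adjusted p = 0.000848)). The rises were S100a11 (1.40), Anxa11 (0.76) and Ly6c2. Falls numbered 4 without mutant replicate 1, 2 or 3 or WT CD4 SP replicate 3.

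Among 17 tested BCL2 family genes, which govern survival of thymocytes, Mcl1 and Bcl2l11 rose and Bax and Bcl2a1d (-1.75) fell. These counts were near the 9.15% and 8.42% of all tested genes, and the median log2 fold change was 0.04. Mcl1, a prosurvival member, was at 683, 586 and 589.8 CPM in mutant cells, against 264, 349 and 152 CPM in WT CD4 SP cells (log2 fold change 1.28 ± 0.28, adjusted p = 0.00737). Bcl2l11, the proapoptotic BIM, was at 101, 60.1 and 56.8 CPM in mutant cells, against 28.2, 26.5 and 17.5 CPM in WT CD4 SP cells (log2 fold change 1.59 ± 0.37, adjusted p = 0.00984), a call lost without WT CD4 SP replicate 3 (adjusted p = 0.052). Bax, a pore-forming executioner, was at 58.4, 53.5 and 54.2 CPM in mutant cells, against 94.2, 93.6 and 95.9 CPM in WT CD4 SP cells (log2 fold change -0.77 ± 0.17, adjusted p = 0.00668). The mutant libraries were the higher ones for Mcl1 and Bcl2l11 and the lower ones for Bax.

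Of 21 tested NuRD and corepressor genes, whose products are chromatin partners of repressors, 7 rose and 1 fell. Among all tested genes 9.15% were called higher and 8.42% lower. The fall was Mbd2 (-0.39, lost without mutant replicate 1, 2 or 3 or WT CD4 SP replicate 2), and the median log2 fold change was 0.34. Chd4, the NuRD remodelling ATPase, was at 227, 229 and 226 CPM in mutant cells, against 101, 125 and 155 CPM in WT CD4 SP cells (log2 fold change 0.84 ± 0.20, adjusted p = 0.0116). Rises numbered 1 without mutant replicate 1 or WT CD4 SP replicate 3, 2 without mutant replicate 2, 3 without mutant replicate 3 or WT CD4 SP replicate 1 and 4 without WT CD4 SP replicate 2.

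**Figure D5:**
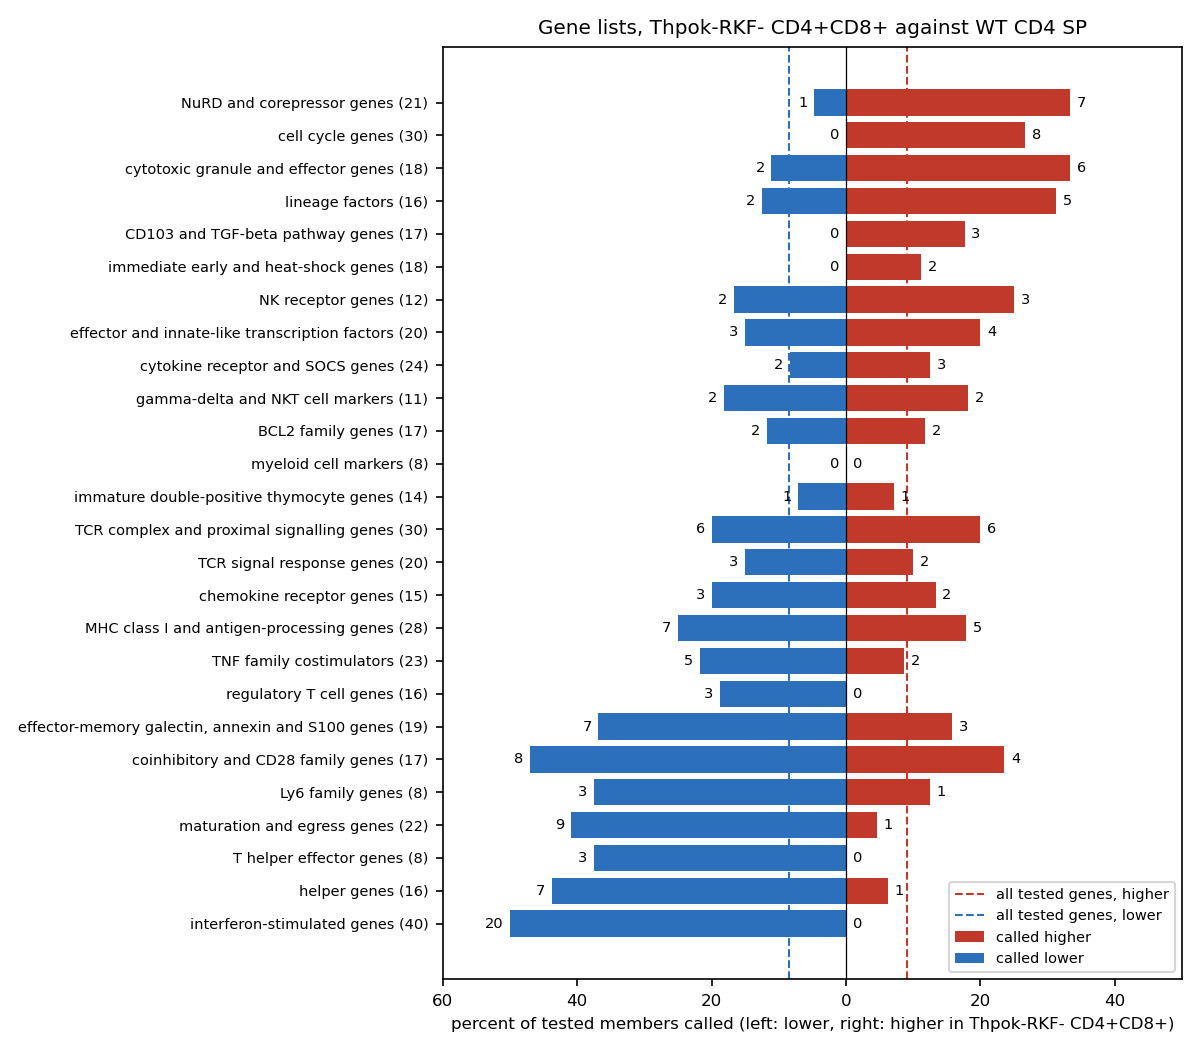
Percent of tested members called lower (blue, to the left) and higher (red, to the right) in mutant CD4+CD8+ than in WT CD4 SP cells, for the lists with at least 8 tested members, with the number called at the end of each bar and the number tested in brackets. Dashed lines mark all tested genes, 9.15% higher and 8.42% lower. Interferon-stimulated genes reach farthest to the left, with 20 of 40.

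Set against Thpok-RKF- CD8 SP cells of the same genotype and hosts, sorted from the other gate, mutant CD4+CD8+ cells differed in fewer genes. There 403 were called, 2.44% of those tested, with 284 higher (1.72%) and 119 lower (0.719%) in the CD4+CD8+ gate. The count was 261, 257 and 263 without mutant CD4+CD8+ replicate 1, 2 or 3, 231 and 216 without Thpok-RKF- CD8 SP replicate 2 or 3, and 782 by DESeq2. Zbtb7b was at 2.11, 2.51 and 1.92 CPM and Runx3 at 306, 246 and 247 CPM in Thpok-RKF- CD8 SP cells, and neither was called between the gates. Tnfrsf4 was at 16.9, 9.03 and 7.27 CPM in Thpok-RKF- CD8 SP cells, below the CD4+CD8+ cells of the same genotype (log2 fold change 2.50 ± 0.34, adjusted p = 0.000654). Cd200 (1.87 ± 0.17 (adjusted p = 3.12e-05)), Cd5 (1.90 ± 0.13 (adjusted p = 5.08e-06)) and Foxp3 (3.49 ± 0.36 (adjusted p = 6.05e-05)) were likewise higher in the CD4+CD8+ gate. Slc6a19, at 980.5, 1093 and 983 CPM in Thpok-RKF- CD8 SP cells, was lower in the CD4+CD8+ gate (-1.54 ± 0.29 (adjusted p = 0.01)), and so was Ly6c1 (-2.94 ± 0.33 (adjusted p = 0.000122)). Mki67 was at 3.12, 3.33 and 1.72 CPM in Thpok-RKF- CD8 SP cells, far below the CD4+CD8+ cells (log2 fold change 4.47 ± 0.37, adjusted p = 2.83e-05). Of the 30 cell cycle genes 16 were higher in the CD4+CD8+ gate and none lower by edgeR, DESeq2 or limma or at an unadjusted p below 0.05. Of 16 regulatory T cell genes 9 were higher. These values share the mutant CD4+CD8+ libraries with the comparison to WT CD4 SP cells and are not independent of it.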

How the data were processed

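RNA from sorted thymocytes was extracted with RNeasy Plus Micro, made into libraries with SMARTer Ultra Low Input reagents and read as 101 bp pairs on a NovaSeq, per the labels' protocols. Build mm39 and the tools STAR, HTSeq, Trimmomatic, DESeq2 and bcl2fastq 2.17 are listed, without roles, per the submitters' processing notes. For strand setting and gene annotation, both not given in the sources used here, no value was assumed, and genes that overlap or run antisense may share reads.

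For the whole series the authors deposited raw counts of reads on each gene, and a table of counts per 1000000 reads (CPM) that equals those counts divided by the gene total. The 5 summary lines per library (15.9 to 21.0% of all counts) were left out, and 3 columns in each table that match no sample label were not used. All 15 libraries, 37311823 to 48607260 reads on genes, entered 1 model of group means in edgeR 4.0.16 (R 4.3.3), with TMM scaling, filterByExpr (minimum count 10, minimum total 15), quasi-likelihood F tests and Benjamini-Hochberg adjustment at 0.05. The test was run first on simulated counts. limma 3.58.1 used log2(CPM + 1) of the deposited values, and DESeq2 1.42.0 the counts. No 2 libraries of the compared groups agreed within sampling noise. Floors set for a count of 0 cover counting error only.

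Genes named are the 8 lineage genes, the 10 largest rises and falls at a mean log2 CPM of 3 or more without overlap (receptor segments, predicted genes, Xist and Y-linked genes left out), the 5 farthest above or below both wild types, and up to 4 per list by adjusted p. Some genes that the rule names are not reported here. The members and the 30 gene lists were chosen with earlier results of these data known, and 17 genes beyond the rule, among them Foxp3, Runx2, Khdrbs3, Lag3 and Pdcd1, after their values were seen. Alternatives covered scaling, the filter, tool, a 2-fold minimum, the replicate block, libraries numbered 1 and each left-out library.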

Additional observations from a re-analysis of the deposited data

How the results depend on the processing

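Against WT CD4 SP cells 2908 genes were called, and 216 when a change of more than 2-fold was tested with glmTreat. That test called 237 of the 2010 genes against WT CD8 SP cells and 89 of the 403 against Thpok-RKF- CD8 SP cells, where DESeq2 called 782. Leaving out 1 library gave 1488 to 2626 against WT CD4 SP, 1147 to 1831 against WT CD8 SP and 216 to 311 against Thpok-RKF- CD8 SP cells. Other scaling (2915), no filter (3130), only the compared groups (2814), limma (3407), DESeq2 (3974), leaving out the libraries numbered 1 (3331) and a term for them (4061) kept the count against WT CD4 SP within 1.5 times. With the replicate number as a block 3713, 2642 and 471 genes were called in the 3 comparisons. Deviations of same-numbered mutant and WT CD4 SP libraries correlated at -0.00965, -0.0191 and 0.00861, and those of differently numbered ones at -0.0224 to 0.036. With 3 libraries per group, these values cannot decide whether those samples were paired. The same-numbered values were 0.149, 0.0428 and 0.0485 against WT CD8 SP, and 0.221, 0.0447 and 0.068 against Thpok-RKF- CD8 SP cells. Differently numbered libraries ran from -0.0995 to 0.045 and from -0.134 to 0.0577 in these comparisons. What lies behind these values was not tested. Of 124 named genes 120 were called, 87 of them in every alternative other than the 2-fold test and 42 in that one too. Lyz2, not called, was called lower without the low-count filter (-3.71, adjusted p = 0.0302), changed sign to 2.00 without the libraries numbered 1 and ran from -4.32 to 1.83 when 1 library was left out, the highest without WT CD4 SP replicate 1, which held nearly all its WT reads.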
